A study of Homo sapiens with 27 samples.

Results

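The comparison described here sets faceted crystals of calcium oxalate dihydrate (COD) against rounded crystals of the same mineral, each given to MCF10DCIS.com cells, human breast epithelial cells derived from MCF10A that form lesions resembling ductal carcinoma in situ. The faceted side holds the thick bipyramids (TK, 4 libraries) and the thin bipyramids (TN, 4 libraries), and the rounded side holds the dumbbell-like crystals (DB, 4 libraries) and the spheres (SPH, 4 libraries). The titles place these 16 libraries, of 27 in all, in their forms. The other 11 are 7 libraries labelled as controls and 4 from cells given plates of the monohydrate (COM). Each flask received 500000 cells, and crystals followed 6 h later at 0.1 mg/mL, so all 4 dihydrate groups share the mineral, the dose and the cell line. How long the crystals were left before harvest is not stated in the labels, and MCF10DCIS.com is 1 line. The labels do not state whether libraries of the same group are from separate cultures; p-values then measure only the spread between these libraries, which may be technical.

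Calcium oxalate occurs in breast tissue as a type of microcalcification, where the dihydrate habit is usually a bipyramid with flat faces and sharp edges. Epithelial cells of the MCF10A family carry basal as well as luminal features, hold to a laminin-rich basement membrane through integrins, and can secrete proteases that cut that matrix. Among their best-known readouts of growth factor signalling are the immediate early transcription factors (FOS, the EGR family), which are switched on without new protein synthesis, and the E2F-driven genes of DNA replication, which are transcribed as cells pass from G1 into S phase.

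Levels are given as CPM, a read count scaled to a common library total, over the library's reads assigned to genes, after scaling between libraries. The deposited names carry serial numbers from 1 to 27, which were cut here into 3 sets: 1 to 10 (set 1), 11 to 22 (set 2) and 23 to 27 (set 3). The numbers themselves show no gap at these cuts, and what the sets stand for is not stated in the labels. DB, SPH and TN each have 2 libraries (A and B) in set 1, 1 (C) in set 2 and 1 (D) in set 3, whereas all 4 TK libraries lie in set 2. Every fold change below is a log2 difference between the mean of TK and TN and the mean of DB and SPH, adjusted for the set, so it need not equal the ratio of the group means. Each gene was also tested for TN alone against the rounded forms, and for TK against DB C and SPH C within set 2.

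Totals ran from 13115649 to 38672448 reads per library, with a median of 19251210, and 16173 of 60683 genes were tested. The first principal component of all 27 libraries (27.2% of the variance) put every set 2 library above 0, with the 4 TK libraries highest. Pairs of TK libraries differed by 2.46 to 8.33 times the counting noise, against 10.7 to 68.7 times for pairs within DB, SPH or TN. These pairs are not alike: all TK libraries lie in set 2, with totals of 15859690 to 18803533 reads, and most other pairs span sets. Many of the others are also deeper, and this measure rises with depth. The A and B pairs, which share set 1, gave 10.7 in DB, 26.7 in SPH and 31.2 in TN. TN C, the only thin bipyramid library in set 2, had a mean fragment length of 296.0 nt, whereas the other set 2 libraries ran from 196.6 to 242.2 nt. TN B stood apart in hepatocyte markers, of which 9 of the 15 on the list were measured. Reads of all list members, measured or not, made up 0.1517% of the library total there, without scaling between libraries. This share was 0.0056% to 0.0195% in the other 26 libraries. The share of leukocyte markers was also highest in TN B, at 0.0072% against 0.0008% to 0.0028% in the others. Transcripts of several cell types in bulk RNA cannot be split, so fewer cells of a type and less RNA per cell cannot be told apart in any value below.

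Between bipyramids and rounded crystals, many transcripts of matrix proteases, immediate early factors and DNA replication differed. The collagenase MMP1 and the stromelysin MMP10 were the genes that fell most among those named by the rule, and 23 of 24 genes of DNA replication rose. In all, 1645 genes were higher with bipyramids (10.2% of those tested) and 1508 were lower (9.32%) at an adjusted p under 0.05. The choice of rounded form moved this count: against the dumbbells alone 1662 genes were higher (10.3%) and 1606 lower (9.93%), and against the spheres alone 454 were higher (2.81%) and 491 lower (3.04%). Counts of list members against 1 rounded form are to be read against these shares. With scaling to the upper quartile in place of the main scaling, the split was 1385 higher and 1812 lower, or 43.3% higher against 52.2%. The median size of a called change was 0.30 on the log2 scale, and 95 called genes passed 2-fold, 18 of them higher and 77 lower. For 71 genes (0.439%) all 8 bipyramid libraries lay above all 8 rounded libraries, and for 54 (0.334%) all 8 lay below.

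Because TK and set 2 are tied, TN was also compared alone. TN is part of the joint comparison and shares its rounded libraries, so its values are not independent of the joint calls. Genes named for the largest joint changes also had to have an unadjusted p under 0.05 for TN alone. Their TN values are therefore no separate check. TN alone against the rounded forms gave 744 genes higher (4.6%) and 566 lower (3.5%), and TK within set 2 gave 866 higher (5.35%) and 725 lower (4.48%). The total of 1310 for TN alone was 323 with no set term, 478 with a block by replicate letter and 820 with the 16 libraries only. It was 2287 with TN C placed in set 1, whose libraries had mean fragment lengths of 256.8 to 318.1 nt. Within set 1, where 2 TN libraries met 4 rounded ones, 1288 genes were higher (7.96%) and 1233 lower (7.62%). Within set 2, TN C against DB C and SPH C gave 91 calls. Within set 3, the edgeR test of TN D against DB D and SPH D called no gene at an adjusted p under 0.05 and 990 at an unadjusted p under 0.05. The counts leaned on single libraries: without TN A the joint count was 1963 and that of TN alone 169, without TN B they were 2814 and 742, and without TN C that of TN alone was 2603. Within set 2 the joint count was 545.

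**Figure D1:**
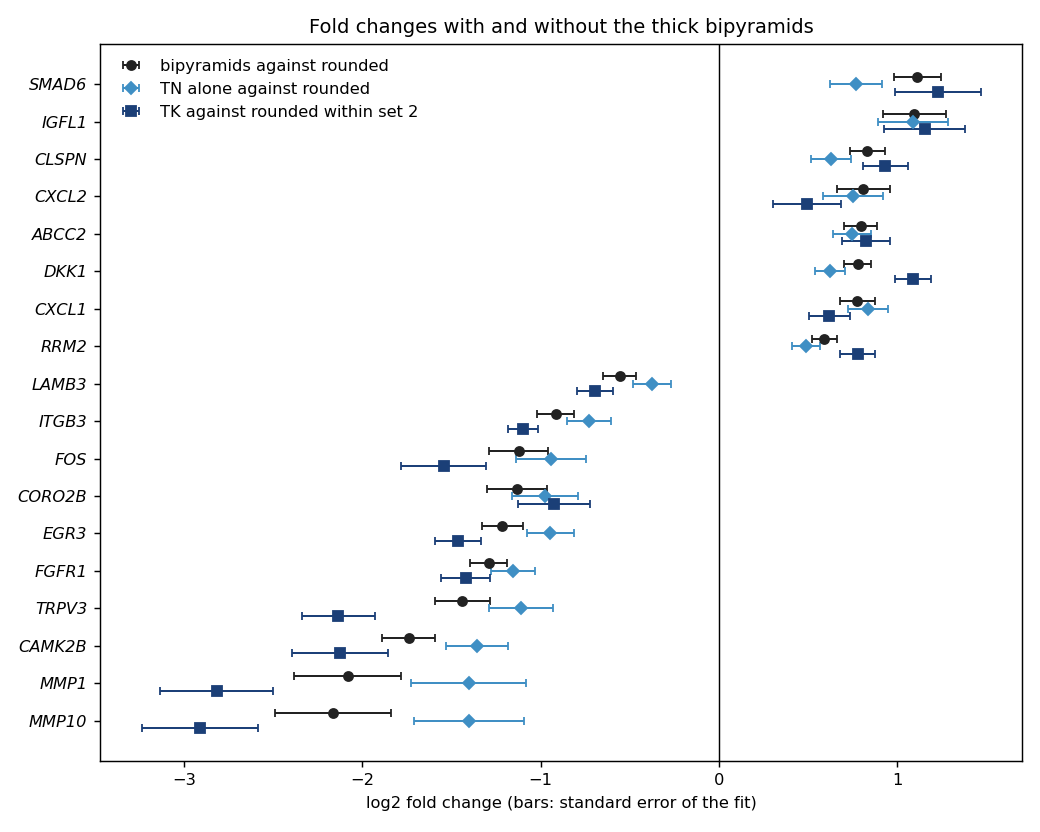
Log2 fold changes (horizontal axis) of 18 genes for both bipyramids against the rounded forms (black circles), TN alone (light blue diamonds) and TK within set 2 (dark blue squares), with standard errors of the fit as bars. For all 18 genes the 3 estimates lie on the same side of 0, and those of MMP10 run from -1.40 for TN alone to -2.91 for TK within set 2. Genes named for the largest joint changes were picked partly by their value in TN alone, which favours the shared side.

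Most measured genes of matrix breakdown were called lower with bipyramids. Of 18 measured members of the list of matrix proteases and their inhibitors, 12 were lower and 0 higher, with a median log2 difference of -0.32 against -0.01 over all genes tested. TN alone called 8 of the 18 lower and TK within set 2 called 12, and neither called any higher. The count for TN alone was 1 without TN A (median -0.24) and 4 without TN B (median -0.19). The members that fell included the collagenase MMP1, the stromelysin MMP10, the gelatinases MMP2 and MMP9, the membrane protease MMP14, the plasminogen activators PLAU and PLAT, the urokinase receptor PLAUR and the sheddase ADAM17. They also included the inhibitors TIMP1 and TIMP3, so proteases and proteins that hold them back fell in the same libraries.

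MMP10 (chromosome 11, 102770503 to 102780628) encodes stromelysin-2, which cuts proteoglycans and activates other metalloproteinases. Its level was 32.9, 32.003, 12.6 and 53.03 CPM in DB A to D and 21.7, 13.3, 2.60 and 11.8 CPM in SPH A to D. In TK A to D it was 0.699, 0.844, 0.482 and 0.967 CPM, and in TN A to D 4.45, 7.05, 4.25 and 12.6 CPM. All 4 TK libraries lay below every rounded library, while the TN libraries overlapped with the rounded ones, mostly the spheres. Within each form with libraries in all 3 sets, the set 2 library was the lowest. The log2 difference was -2.16 (SE 0.32, adjusted p = 0.000124), with -1.399 for TN alone (adjusted p = 0.00927) and -2.91 for TK within set 2 (adjusted p = 5.80e-05). Within set 2, TN C differed from the rounded libraries by -0.43 (adjusted p = 0.54). The 7 controls ran from 2.99 to 23.8 CPM, and the 4 in set 2 were the lowest of them.

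The neighbouring MMP1 gene (chromosome 11, 102789920 to 102798160) encodes interstitial collagenase, which cleaves fibrillar collagen. Its level was 107, 102, 45.03 and 148 CPM in DB A to D and 69.8, 36.9, 14.2 and 35.3 CPM in SPH A to D, against 3.03, 4.94, 2.83 and 3.56 CPM in TK A to D and 11.4, 21.5, 16.7 and 35.6 CPM in TN A to D. It showed the same order as MMP10: dumbbells highest, TK below every rounded library and TN overlapping with the spheres. MMP1 fell by 2.08 on the log2 scale with bipyramids (SE 0.30, adjusted p = 9.99e-05) and by 1.404 with TN alone (adjusted p = 0.0114). With TK and TN joined, MMP10 and MMP1 changed by -1.43 (adjusted p = 0.0292) and -1.39 (adjusted p = 0.0231) against the spheres by themselves, and by -2.90 and -2.78 against the dumbbells. For MMP1, TN A and TN B lay below SPH A and SPH B. TN C (16.7 CPM) and TN D (35.6 CPM) lay above the sphere library of their own set (14.2 and 35.3 CPM). MMP10 showed the same split, so a fall below the spheres in TN was seen in set 1 only.

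MMP9, the gelatinase that cuts basement membrane collagen, was a low-level transcript in these cells. It ran from 0.572 to 7.09 (median 1.57) CPM over the rounded libraries and from 0.120 to 1.23 (median 0.322) CPM over the bipyramid libraries, and its log2 difference was -1.76 (adjusted p = 0.0118). TN alone gave -1.19 for MMP9 (adjusted p = 0.118), and TN C lay above both rounded libraries of its set. TIMP1, the secreted inhibitor of metalloproteinases, ran from 115 to 366 (median 206) CPM with rounded crystals and from 59.5 to 145 (median 85.2) CPM with bipyramids, a difference of -0.91 (adjusted p = 0.000253). PLAUR fell by 0.67, PLAT by 0.69 and MMP2 by 0.67 on the log2 scale, each with TN alone also called lower. MMP9 and TIMP1 were chosen after their values were seen.

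A promoter window from RefSeq (GRCh38.p14) is shown for MMP10 because AP-1, the FOS and JUN dimer, is the textbook regulator of this gene. The 200 bases before its start, on the minus strand at chr11:102780629-102780828, are printed 5′ to 3′. A match to TGANTCA, a loose form of the AP-1 site in which N is any base, is in capitals.
MMP10: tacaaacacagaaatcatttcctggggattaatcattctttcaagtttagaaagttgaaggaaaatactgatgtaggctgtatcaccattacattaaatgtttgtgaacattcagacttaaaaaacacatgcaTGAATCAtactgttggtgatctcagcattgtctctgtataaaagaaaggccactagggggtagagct
The match, TGAATCA, has A at the free base N and begins 67 bases before the start. TGANTCA, read on both strands of windows from 250 bases before to 50 after the start, occurs in 2 of the 7 called matrix genes found in the table and in 4.97% of 11130 promoters of tested genes. The match describes these letters only, and binding was not measured. Whether AP-1 takes part in the fall of MMP10 was not tested.

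**Figure D2:**
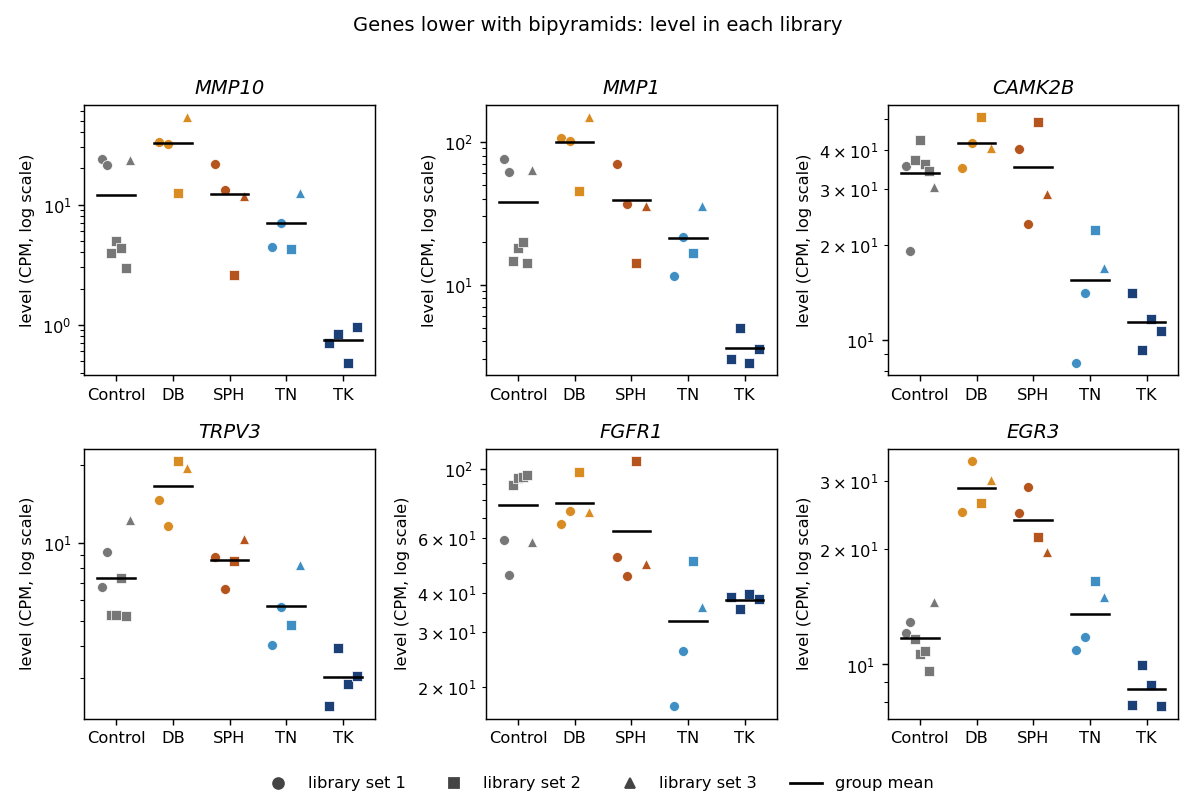
Level of 6 genes in each library (vertical axis, CPM on a log scale) for the controls and the 4 dihydrate forms. Points are libraries, their shape gives the set and black lines are group means; the TK points of MMP10 and MMP1 lie below all others, and CAMK2B and EGR3 separate the 8 bipyramid from the 8 rounded libraries.

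Other genes that the rule named for a large fall had varied roles. CAMK2B (chromosome 7), the beta subunit of calcium/calmodulin-dependent kinase II, was at 35.1, 41.97, 50.6 and 40.5 CPM in DB A to D and 40.2, 23.3, 49.0 and 28.97 CPM in SPH A to D. It was at 14.1, 9.28, 11.6 and 10.7 CPM in TK A to D and 8.46, 14.1, 22.4 and 16.9 CPM in TN A to D. The 2 sides did not overlap, and the highest bipyramid value was in TN C. CAMK2B fell by 1.74 on the log2 scale (SE 0.15, adjusted p = 1.23e-07), with -1.36 for TN alone (adjusted p = 0.000128). The controls ran from 19.2 to 43.1 CPM, from inside the bipyramid range to inside that of the rounded forms.

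FGFR1, a receptor tyrosine kinase for fibroblast growth factors, ran from 45.4 to 106 (median 69.9) CPM with rounded crystals and from 17.3 to 50.9 (median 37.2) CPM with bipyramids. It fell by 1.29 (SE 0.10, adjusted p = 1.57e-08), and it was also lower in TN within set 1 (-1.43, adjusted p = 1.87e-05) and within set 2 (-1.003, adjusted p = 0.0376). The overlap of the 2 sides came from TN C at 50.9 CPM, which was below both rounded libraries of its own set. Against the shared controls FGFR1 was lower with TK (-1.30) and TN (-1.02), while DB (0.32) and SPH (-0.05) were not called.

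TRPV3, a warmth-gated calcium-permeable channel of epithelia, was at 14.7, 11.7, 20.8 and 19.5 CPM in DB, 8.81, 6.63, 8.53 and 10.4 CPM in SPH, 2.33, 3.92, 2.83 and 3.05 CPM in TK and 4.04, 5.66, 4.82 and 8.24 CPM in TN. It was lower with bipyramids by 1.44 (adjusted p = 1.06e-06) and in TN within set 2 (-1.46, adjusted p = 0.0287). The rounded forms also differed from each other, with TRPV3 higher in dumbbells than in spheres by 0.96 (adjusted p = 0.0285). CORO2B, an actin-binding coronin, ran from 3.42 to 18.6 (median 8.26) CPM with rounded crystals and from 1.75 to 5.89 (median 2.64) CPM with bipyramids and fell by 1.13 (adjusted p = 4.33e-05). TREM2, best known as a lipid receptor of myeloid cells, fell by 1.17 (adjusted p = 0.00267), while TN alone gave -0.86 (adjusted p = 0.0754). SEMA7A, a membrane-anchored semaphorin that signals through integrins, was chosen after its values were seen: it ran from 33.8 to 60.4 (median 42.3) CPM with rounded crystals and from 15.5 to 32.9 (median 18.5) CPM with bipyramids without overlap (log2 -1.05, adjusted p = 1.03e-07).

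Of 19 measured immediate early genes 9 were called lower with bipyramids, 2 higher and 8 neither, with a median of -0.33. TN alone called 5 lower and 2 higher, or 2 lower without TN A or TN B, and TK within set 2 called 9 lower and 0 higher. Within set 1 TN called 3 lower and 3 higher (median -0.085). EGR3, a zinc finger factor induced by growth factors and calcium, was at 24.9, 33.8, 26.3 and 30.2 CPM in DB, 24.8, 28.9, 21.4 and 19.6 CPM in SPH, 7.86, 9.95, 8.85 and 7.78 CPM in TK and 10.9, 11.8, 16.5 and 14.9 CPM in TN. Its 8 bipyramid libraries all lay below its 8 rounded libraries (log2 -1.21, SE 0.11, adjusted p = 1.18e-07), and the controls, from 9.64 to 14.5 CPM, lay among the bipyramids. Against those controls EGR3 was higher with DB (1.25) and SPH (0.97) and was not called with TN (0.16) or TK (-0.38).

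FOS, the AP-1 subunit, had another pattern. It ran from 62.8 to 150.4 (median 107) CPM with rounded crystals and from 24.3 to 80.1 (median 26.5) CPM with bipyramids, and it fell by 1.12 (adjusted p = 9.54e-05). FOS was lower than the controls with TK (-1.62) and TN (-1.25), whereas DB (-0.32) and SPH (-0.30) were not called. EGR2 fell by 1.31 and EGR1 by 0.75, both also in TN alone. KLF4, a factor of epithelial differentiation on the same list, rose by 0.44 (adjusted p = 0.0111), also in TN alone, but was not called without TN A (0.37). EGR1 and KLF4 were chosen after their values were seen.

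Of 21 transcripts that report signalling through the kinase ERK, 10 were called lower with bipyramids and 0 higher, with a median of -0.23. In TN alone the edgeR test called none of the 21 (median -0.14), with 8 lower and 1 higher at an unadjusted p under 0.05, and DESeq2 called 1 lower. Within set 1 TN called 8 lower, and TK within set 2 called 8 lower. DUSP6, the phosphatase that switches ERK off, ran from 376 to 520.2 (median 444) CPM with rounded crystals and from 293 to 449 (median 319) CPM with bipyramids and fell by 0.44 (adjusted p = 0.000139). The feedback inhibitor SPRY2 fell by 0.32 and EREG, an EGF receptor ligand, by 0.40. With the spheres as the only rounded form, 5 members of the ERK list and 5 of the immediate early list were called lower, beside 3.04% of all genes.

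Some genes that tie epithelial cells to their matrix and to each other were called lower with bipyramids, and most members of these lists were not called. Of 17 measured basement membrane and hemidesmosome genes, 9 were lower and 0 higher (median -0.21), with 6 lower in TN alone and 5 in TK within set 2. In TN alone 1 was lower without TN A or TN B, 2 without DB D or SPH C and 3 without DB A or DB B. LAMB3, a chain of laminin-332, fell by 0.56 (adjusted p = 0.000124). LAMB3 was at 1560.2, 1652, 939.6 and 2501 CPM in DB, 1568, 1403, 1043 and 1470.3 CPM in SPH, 639.6, 612, 619 and 575 CPM in TK and 1094, 1069.7, 872 and 1587 CPM in TN. The dumbbells were highest on average, and the sides overlapped. LAMB1, a chain of other laminins, fell by 0.32. With the spheres as the only rounded form the basement membrane count was 4.

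Among integrins and focal adhesion genes 7 of 20 were lower and 0 higher (median -0.13), with 3 lower in TN alone and 2 in TK within set 2. ITGB3, the beta-3 chain of the vitronectin receptor, which also binds osteopontin, was at 127, 148, 146 and 138 CPM in DB A to D and 108, 113, 143 and 103 CPM in SPH A to D. It was at 63.3, 67.5, 65.3 and 73.4 CPM in TK A to D and 51.9, 58.8, 102 and 103 CPM in TN A to D. The sides touched without overlap, with TN D just under SPH D, and ITGB3 fell by 0.92 (SE 0.11, adjusted p = 3.19e-06), by 0.73 in TN alone, and TK within set 2 gave -1.098. ITGB5, another vitronectin receptor chain, fell by 0.40. The integrin count was 3 without TN A, 3 without SPH C, 4 without SPH B, TK A or TN B, and 3 with the spheres alone.

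Epithelial junction genes were lower in 7 of 23 cases and higher in 0 (median -0.12), with 7 lower in TN alone, 3 in TK within set 2 and 2 with the spheres as the only rounded form. In TN alone 1 was lower without TN A or TN B and 11 without TN C, and 12 other omissions gave 3 or 4. The cadherins CDH1 (E-cadherin) and CDH3 (P-cadherin) fell by 0.34 and 0.36, and the tight junction protein CLDN4 by 0.38, all 3 also in TN alone. CDH1 ran from 233 to 324 (median 262) CPM with rounded crystals and from 192 to 238 (median 208) CPM with bipyramids. Of 16 mesenchymal and matrix genes 6 were lower and 0 higher, 2 in TN alone and 3 in TK within set 2, with fibronectin (FN1) down by 0.81, the collagen COL6A1 by 0.62 and vimentin (VIM) by 0.26. In TN alone FN1 gave -0.48 (adjusted p = 0.179) and VIM -0.11 (adjusted p = 0.492). Without TN B the mesenchymal count was 3, and VIM was not called without DB D (-0.19), SPH A (-0.22), TN B (-0.23), TK D, TN A or TN D (each -0.24).

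TGF-beta target genes were mixed, with 7 of 20 lower and 2 higher (median -0.16), 3 lower and 4 higher in TN alone and 3 lower and 1 higher in TK within set 2, and the lower count was 4 without SPH C, TK A or TN A. LTBP2, a latent TGF-beta binding protein, fell by 0.54. SMAD6, which inhibits signalling of the BMP branch, rose by 1.11 (SE 0.13, adjusted p = 1.78e-06) and did not overlap between the sides. It was at 1.095, 2.14, 2.17 and 1.76 CPM in DB, 2.89, 3.14, 3.22 and 3.75 CPM in SPH, 6.06, 6.57, 7.05 and 5.14 CPM in TK and 3.81, 4.05, 3.85 and 4.63 CPM in TN. SMAD6 was lower than the controls with DB (-1.51, adjusted p = 7.15e-07) and was not called against them in the other 3 forms.

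DNA replication genes rose with bipyramids. Of 24 measured genes of replication and the G1/S transition, 23 were higher and 0 lower, with a median of 0.42. TN alone called 20 higher, TK within set 2 called 22 and TN within set 1 called 20, with none lower in any of these. Counts of TN within sets 2 and 3, which hold 1 TN library each, are not reported here for this or any other list. The count for TN alone was 3 without TN A (median 0.25) and 13 without TN B or SPH C, and the joint count was 23 without TN B. The member not called was CDT1, the licensing factor (log2 0.04, adjusted p = 0.752). With the spheres as the only rounded form 12 of the 24 were called higher, beside 2.81% of all genes, and with the dumbbells alone 23.

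RRM2, the small subunit of ribonucleotide reductase, which makes deoxynucleotides, was at 179.6, 175, 163 and 144 CPM in DB A to D and 178, 211, 167 and 178 CPM in SPH A to D. It was at 277, 276, 298 and 281 CPM in TK A to D and 322, 244, 223 and 194 CPM in TN A to D. All 4 TK libraries and 3 of the 4 TN libraries lay above every rounded library, and TN D lay among the spheres. RRM2 rose by 0.59 (SE 0.07, adjusted p = 2.09e-06), by 0.49 in TN alone (adjusted p = 0.000507) and by 0.78 in TK within set 2 (adjusted p = 0.000117). CDC45, part of the replicative helicase, ran from 20.2 to 29.6 (median 25.7) CPM with rounded crystals and from 29.6 to 42.5 (median 39.6) CPM with bipyramids, so the sides touched without overlap (log2 0.50, adjusted p = 1.03e-05). Within set 2, TN C differed from the rounded libraries by 0.44 for RRM2 (adjusted p = 0.108), 0.14 for CDC45 (adjusted p = 0.573) and -0.12 for UHRF1, described next (adjusted p = 0.658).

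CLSPN, the claspin adaptor that protects stalled forks, showed the largest rise of a replication-linked gene named by the rule. It ran from 10.6 to 19.6 (median 16.5) CPM with rounded crystals and from 18.5 to 33.97 (median 31.0) CPM with bipyramids, a difference of 0.83 (adjusted p = 3.00e-06), and of 0.63 for TN alone. CCNE2 (cyclin E2), which drives entry into S phase, rose by 0.73 (adjusted p = 0.000804) and by 1.11 in TK within set 2. FAM111B, a replication-linked protease, rose by 0.62 and by 1.06 in TK within set 2, while TN alone gave 0.35 (adjusted p = 0.128). MCM4 and MCM6, subunits of the replicative helicase, rose by 0.48 and 0.39, the sliding clamp PCNA by 0.54 and the clamp loader subunit RFC3 by 0.39. GINS2, a helicase cofactor, rose by 0.42, the transcription factor E2F1 by 0.43, the maintenance methylation factor UHRF1 by 0.47 and the phosphatase CDC25A by 0.31. Among MCM4, MCM6, PCNA, RFC3, GINS2, E2F1, UHRF1 and CDC25A, only CDC25A (0.15, adjusted p = 0.342) was not also called higher in TN alone. MCM6, PCNA, RFC3, GINS2, E2F1, UHRF1 and CDC25A were chosen after their values were seen.

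**Figure D3:**
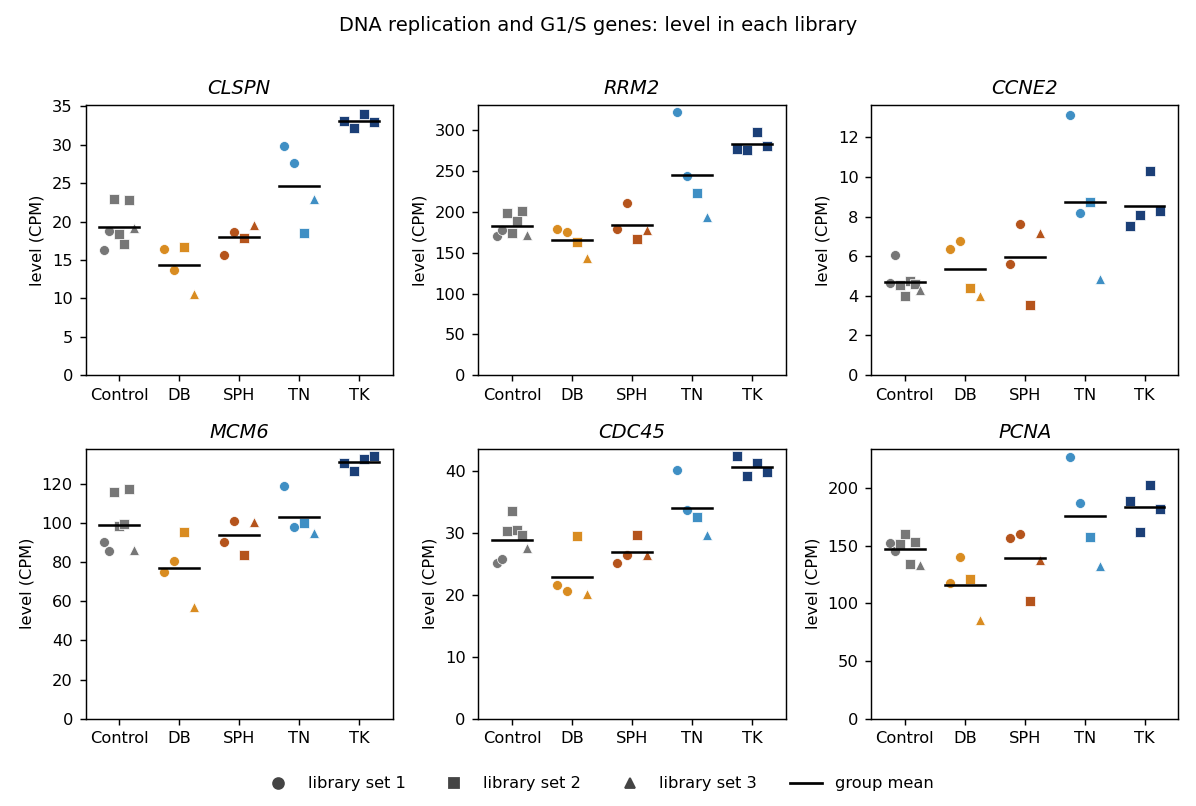
Level of 6 replication and G1/S genes in each library (vertical axis, CPM from 0) for the controls and the 4 dihydrate forms, with sets as point shapes and group means as black lines. The TK means are the highest in 5 of the 6 panels, the TN mean is highest for CCNE2, and the DB means lie below the control means in all panels but that of CCNE2.

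Promoter windows of 7 called replication genes are shown because E2F sites are the shared regulatory letters of this group in textbooks. Each is the 100 bases before the RefSeq start (GRCh38.p14), 5′ to 3′ on the gene's own strand, with matches to TTTCCCGC or TTTGGCGC, read on both strands, in capitals. The positions are chr2:135876444-135876543 (minus strand), chr13:33818049-33818148 (plus), chr20:5126623-5126722 (minus), chr3:48188418-48188517 (minus), chr16:85688955-85689054 (minus), chr20:33686386-33686485 (minus) and chr19:4909401-4909500 (plus).
MCM6: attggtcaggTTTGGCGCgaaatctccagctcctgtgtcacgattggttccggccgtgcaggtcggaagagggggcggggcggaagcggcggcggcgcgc
RFC3: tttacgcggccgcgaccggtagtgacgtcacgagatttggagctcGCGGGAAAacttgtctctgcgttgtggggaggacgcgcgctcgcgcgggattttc
PCNA: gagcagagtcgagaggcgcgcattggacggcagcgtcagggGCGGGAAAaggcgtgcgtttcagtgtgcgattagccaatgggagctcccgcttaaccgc
CDC25A: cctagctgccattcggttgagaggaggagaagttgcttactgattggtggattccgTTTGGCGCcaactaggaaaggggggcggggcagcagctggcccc
GINS2: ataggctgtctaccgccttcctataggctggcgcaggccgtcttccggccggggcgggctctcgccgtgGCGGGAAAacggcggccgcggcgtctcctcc
E2F1: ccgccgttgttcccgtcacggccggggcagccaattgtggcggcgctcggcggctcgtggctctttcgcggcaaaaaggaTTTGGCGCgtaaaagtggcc
UHRF1: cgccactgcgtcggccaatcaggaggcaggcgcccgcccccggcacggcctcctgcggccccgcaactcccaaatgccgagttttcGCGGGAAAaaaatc
In these windows the match nearest the start begins 14 bases before it in UHRF1 and 90 bases before it in MCM6. Of the 23 called replication genes 20 were in the table, and 13 of those 20 (65.0%) held a match in the window from 250 bases before to 50 after the start. The share was 3.62% of 11130 promoters of tested genes and 2.31% of all 27305 in the table. None of 13 called mitosis genes found in the table held one. These are letters in fixed windows, and no factor's binding was measured.

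Of 24 mitosis genes 17 were called higher and 0 lower (median 0.24), with 10 higher in TN alone and 15 in TK within set 2. In TN alone the count was 0 without TN A (median 0.14), 4 without SPH C and 5 without TN B or DB B. TPX2, a spindle assembly factor, rose by 0.28, the chromosomal passenger BIRC5 by 0.32 and CDC20, the activator of the anaphase-promoting complex, by 0.32, each also called in TN alone. MKI67, which encodes the proliferation marker Ki-67, was not called (0.24, adjusted p = 0.109). It was at 434, 463, 395 and 468 CPM in TK A to D, above all rounded libraries, and at 312, 216, 332 and 343 CPM in TN A to D, where TN D lay just above the highest rounded library and the other TN libraries within their range. The mitosis count was 11 without SPH C and 4 with the spheres as the only rounded form.

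Inflammatory genes were split. On the list of NF-kB targets and cytokines 5 of 20 were higher and 3 lower (median 0.08). TN alone called 7 higher and 0 lower (median 0.25), whereas TK within set 2 called 1 higher and 4 lower (median -0.18). Without TN A the count of higher genes was 3, and 2 in TN alone, and with the dumbbells as the only rounded form it was also 3.

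CXCL1, a neutrophil chemokine in the chemokine cluster of chromosome 4, was at 158, 157, 186 and 139.9 CPM in DB A to D and 154, 147, 147 and 139 CPM in SPH A to D. It was at 266, 242, 266 and 243 CPM in TK A to D and 432, 276, 215 and 186 CPM in TN A to D. CXCL1 rose by 0.78 (SE 0.10, adjusted p = 1.06e-05), by 0.83 in TN alone and by 0.62 in TK within set 2. CXCL2 and CXCL8, related chemokines of the same cluster, rose by 0.81 and 0.33, and CCL20, which attracts cells with CCR6, rose by 0.66. TK within set 2 gave 0.50 for CXCL2 (adjusted p = 0.109), 0.22 for CXCL8 (adjusted p = 0.339) and 0.26 for CCL20 (adjusted p = 0.389). CXCL8, chosen after its values were seen, was not called without SPH C (0.29) or without TN A (0.25).

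The other followed inflammatory genes split. PTGS2, the inducible cyclooxygenase, was at 56.6, 53.4, 47.8 and 62.6 CPM in DB, 28.5, 33.4, 33.8 and 19.9 CPM in SPH, 47.1, 51.7, 51.6 and 50.2 CPM in TK and 65.2, 53.6, 62.2 and 40.5 CPM in TN. It was called higher with bipyramids (0.35, adjusted p = 0.0395), but the spheres set that sign: against the dumbbells alone the difference was -0.13 (adjusted p = 0.577). The joint call lay near the threshold and was lost on leaving out any 1 of 14 libraries, with differences between 0.28 (without DB C) and 0.37 (without TK A). All 4 forms had higher group means of PTGS2 than the controls, which ran from 13.1 to 23.6 CPM. IL1B, which encodes the inflammasome-processed cytokine, was not called (-0.23, adjusted p = 0.191). The cytokine LIF, a relative of interleukin-6, fell by 0.33 (adjusted p = 0.000482), with -0.23 for TN alone (adjusted p = 0.0548). ICAM1, an adhesion molecule for leukocytes, fell by 0.33 and IL24, a cytokine of the interleukin-10 family, by 0.93, both chosen after their values were seen. TN alone gave -0.07 for ICAM1 (adjusted p = 0.691) and -0.26 for IL24 (adjusted p = 0.474).

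Other genes with large rises had varied roles. BCYRN1, a repeat-derived noncoding RNA with near-identical copies in the genome, so that its counts are uncertain, rose by 1.13 (adjusted p = 0.00131), with 7.14 to 27.7 (median 14.4) CPM over the rounded and 18.4 to 47.1 (median 36.5) CPM over the bipyramid libraries. IGFL1, a small secreted protein of the IGF-like family, ran from 2.52 to 6.07 (median 4.86) CPM with rounded crystals and from 5.15 to 13.6 (median 11.7) CPM with bipyramids and rose by 1.09 (adjusted p = 0.000125). DKK1, a secreted Wnt inhibitor, rose by 0.78 (adjusted p = 1.18e-07), although its TK libraries (42.8, 37.4, 43.6 and 43.04 CPM) lay within the range of the rounded ones, and the set 2 rounded libraries DB C (18.9 CPM) and SPH C (20.4 CPM) lay below them. TN alone gave 0.62 (adjusted p = 7.98e-05).

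Targets of NRF2, the factor of the oxidant response, were higher in 10 of 22 cases and lower in 0 (median 0.18), with 5 higher in TN alone and 5 in TK within set 2. In TN alone the NRF2 count was 2 without TN A and 8 without SPH D. ABCC2, an efflux pump for glutathione conjugates, was at 8.76, 8.42, 20.9 and 6.59 CPM in DB, 7.36, 10.02, 20.4 and 11.1 CPM in SPH, 35.5, 40.03, 32.9 and 37.7 CPM in TK and 14.2, 17.8, 33.5 and 11.5 CPM in TN. DB C stood apart from the other dumbbell libraries, and ABCC2 rose by 0.79 (adjusted p = 1.61e-06). The glutathione enzymes GPX2 and GSR rose by 0.44 and 0.22, both also in TN alone. HMOX1, heme oxygenase 1, stood at low levels (2.27 to 4.24 (median 2.86) CPM with rounded crystals, 2.11 to 5.06 (median 3.21) CPM with bipyramids) and was not called (0.22, adjusted p = 0.343). The NRF2 count was 4 with the spheres alone and 6 with the dumbbells alone on the rounded side.

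Heat shock chaperones were called higher with the thick bipyramids and not with the thin ones. On the list 8 of 19 were higher and 0 lower with both bipyramids (median 0.16), and TK within set 2 called 12 higher. TN alone called 0 in the edgeR test, with 4 higher and 1 lower at an unadjusted p under 0.05, and DESeq2 called 2 higher and 1 lower. HSPE1, the mitochondrial co-chaperonin, rose by 0.63 (adjusted p = 0.00343), with 0.47 for TN alone (adjusted p = 0.0774) and 0.71 for TK within set 2 (adjusted p = 0.000382). The HSP90 co-chaperones AHSA1 and STIP1 rose by 0.34 and 0.29, with 0.15 and 0.13 for TN alone, neither called. Inducible HSP70 (HSPA1A), whose reads cannot be told apart from those of the near-identical HSPA1B, was not called (-0.03, adjusted p = 0.88). The heat shock count was 4 without SPH C, 5 without TN A and 1 with the spheres as the only rounded form. The difference between TN and TK was itself called for 1 of the 19, HSPH1, an HSP110 chaperone that was at 160.0, 146, 164 and 164 CPM in TK and 118, 104, 128 and 98.1 CPM in TN (-0.51, adjusted p = 0.0223). HSPH1 was named after its values were seen and was not called with both bipyramids (0.14, adjusted p = 0.167).

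Of 23 lysosome and autophagy genes 7 were called higher and 1 lower (median 0.07), with 4 higher in TN alone and 4 in TK within set 2. ATP6V0D1, a subunit of the proton pump that acidifies lysosomes, rose by 0.35 and the autophagy receptor SQSTM1 by 0.30, each also in TN alone. Genes of calcium entry, stores and export were lower in 7 of 22 cases and higher in 0 (median -0.11), with 2 lower in TN alone and 4 in TK within set 2. These included the plasma membrane calcium pump ATP2B4 (-0.48) and the channels TRPC1 (-0.60) and TRPV4 (-0.45). The insulin-like growth factor axis had 7 of 15 lower and 0 higher (median -0.26), 3 lower and 1 higher in TN alone and 2 lower in TK within set 2, with the noncoding RNA H19 down by 0.67, the RNA-binding protein IGF2BP2 by 0.27 and the secreted binding protein IGFBP7 by 0.37. In TN alone IGFBP7 gave -0.02 (adjusted p = 0.926).

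**Figure D4:**
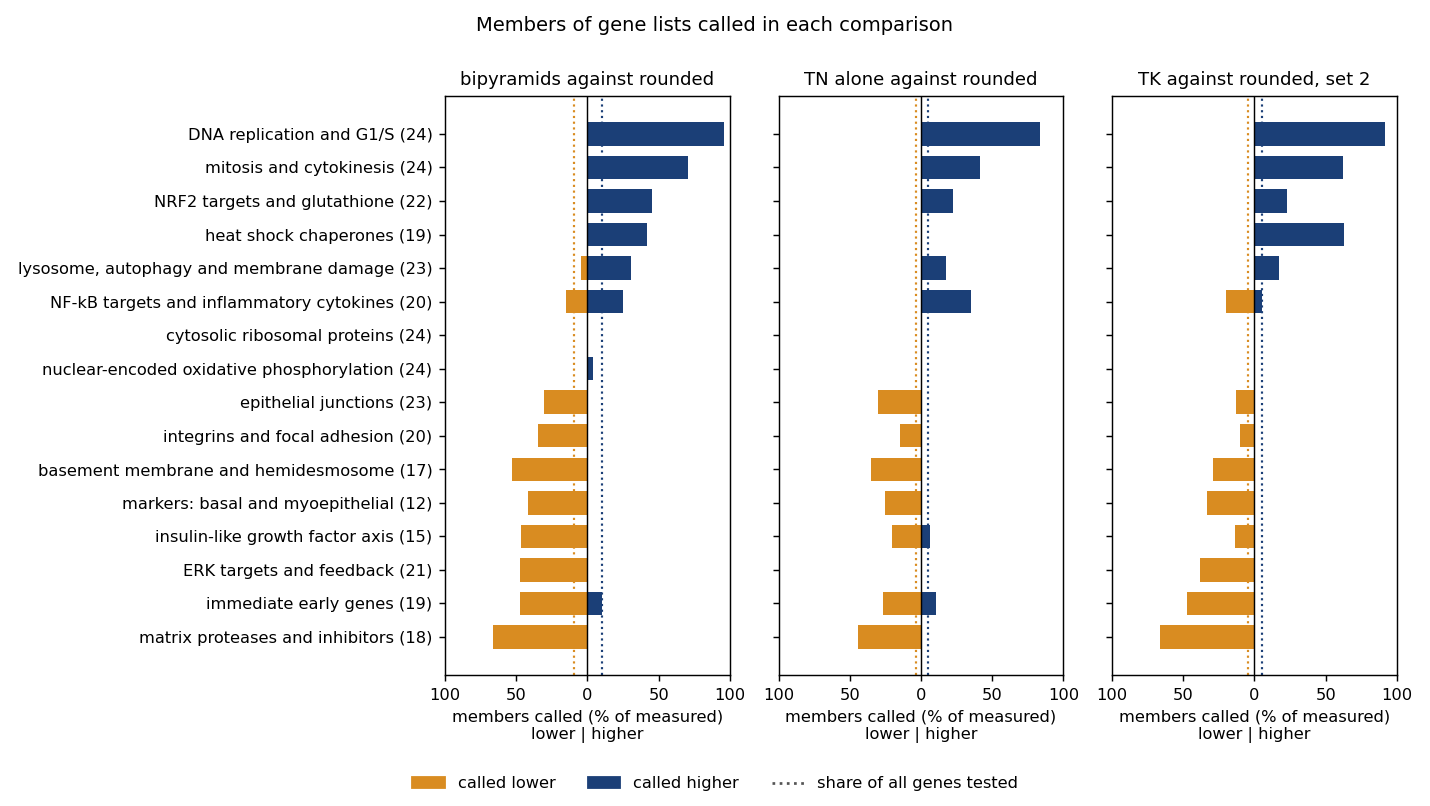
Share of the measured members of 16 gene lists called higher (blue, to the right) or lower (orange, to the left) for both bipyramids, TN alone and TK within set 2, in percent, with the share over all genes tested as dotted lines. DNA replication genes extend farthest to the right and matrix proteases farthest to the left in all 3 panels, and heat shock chaperones have no bar for TN alone.

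Thin and thick bipyramids differed from each other in 26 genes (0.161%), and dumbbells and spheres in 31 (0.192%). Without DB D the first count was 67 and without TK C it was 6, and the second was 133 without DB C and 2 without SPH D. Named genes that differed between TN and TK were ANGPTL4, HSPH1, IGFBP7, PER1, LOXL2, CAMK2N1, IL24, ICAM1 and SYNM. ANGPTL4, a secreted lipase inhibitor induced by hypoxia and PPAR factors, was lower in TN than in TK by 0.99 (SE 0.18, adjusted p = 0.0197), and it was at 54.4, 42.98, 52.2 and 38.9 CPM in TK and 48.8, 52.2, 26.6 and 46.9 CPM in TN. TN C, which shares set 2 with TK, was the lowest TN library, and DB C and SPH C were also low, at 18.6 and 20.3 CPM. LOXL2, a lysyl oxidase that crosslinks collagen, was higher in TN than in TK by 0.94 (adjusted p = 0.000375): it was at 12.5, 10.01, 11.5 and 11.04 CPM in TK and 25.2, 24.7, 24.6 and 38.4 CPM in TN, with 26.4 to 42.5 (median 35.2) CPM over the rounded libraries. The clock gene PER1 was higher in TN than in TK by 0.81, the kinase inhibitor CAMK2N1 by 0.55, IL24 by 1.34, ICAM1 by 0.53 and IGFBP7 by 0.69. SYNM, an intermediate filament protein, was lower in TN by 0.96. PER1, LOXL2, CAMK2N1 and SYNM were chosen after their values were seen.

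Differences that missed the threshold between TN and TK were not small for the proteases: TN exceeded TK by 1.53 (SE 0.57, adjusted p = 0.347) for MMP10 and by 1.35 (SE 0.47, adjusted p = 0.307) for MMP1. Dumbbells exceeded spheres by 1.47 (SE 0.33, adjusted p = 0.0696) and 1.39 (SE 0.34, adjusted p = 0.104). Between the rounded forms PTGS2 was higher in dumbbells by 0.97 (adjusted p = 0.00804) and SMAD6 was lower by 0.88 (adjusted p = 0.0285).

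Each form was also set beside the same 7 controls. The 4 comparisons share those controls, so each is given by its own values. For TK, whose libraries all lie in set 2, the comparison rests on a set term that is the same in every group. Within set 2, against its 4 controls alone, TK gave 1029 genes higher and 987 lower of 16173 tested. DB gave 958 genes higher (5.92%) and 651 lower (4.03%), SPH 13 higher (0.0804%) and 4 lower (0.0247%), TK 1290 higher (7.98%) and 1182 lower (7.31%), and TN 1086 higher (6.71%) and 778 lower (4.81%). Spheres were the form nearest to the controls by number of calls. The genes called between bipyramids and rounded forms were chosen by these same libraries, which favours bipyramids and rounded forms lying on opposite sides of the controls. Of the 1645 genes higher with bipyramids, 815 were above the controls with TK, 442 with TN, 29 with DB and 0 with SPH. Below the controls were 1 with TK, 8 with TN, 279 with DB and 1 with SPH. Of the 1508 lower genes, 790 were below the controls with TK, 417 with TN, 19 with DB and 0 with SPH. Above the controls were 2 with TK, 15 with TN, 262 with DB and 9 with SPH.

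For DNA replication genes DB called 11 of 24 lower than the controls (median -0.28) and SPH none in either direction (median -0.01). TK called 19 higher (median 0.39) and TN 7 higher (median 0.19). Matrix proteases and inhibitors were higher with DB in 7 of 18 cases (median 0.30) and not called with SPH (median -0.01). With TK 10 were lower and 2 higher (median -0.45), and with TN 6 were lower and 1 higher (median -0.23). NF-kB targets lay above the controls in DB (13 of 20, median 0.58) and TN (15 of 20, median 0.61), with 9 higher and 1 lower in TK (median 0.24) and 1 higher in SPH (median 0.26). Against the set 2 controls alone, TK called 18 replication genes higher and 0 lower. For matrix genes it called 1 higher and 10 lower, and for NF-kB targets 9 higher and 3 lower. Targets of ATF4 and CHOP, the amino acid and protein stress factors, were higher than the controls in 15 of 22 cases with DB, 17 with TN, 7 with TK and 0 with SPH. Between bipyramids and rounded forms 3 of the 22 were higher (1 without DB C or TN A) and 2 lower, and CHAC1, a glutathione-degrading target of ATF4, was not called (0.20, adjusted p = 0.668). Heat shock chaperones were below the controls in 11 of 19 cases with DB, 7 with TN, 2 with SPH and 3 with TK, which also had 3 above. Epithelial junction genes were above the controls in 13 of 23 cases with DB, against 2 with TK, 2 with TN and 0 with SPH.

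**Figure D5:**
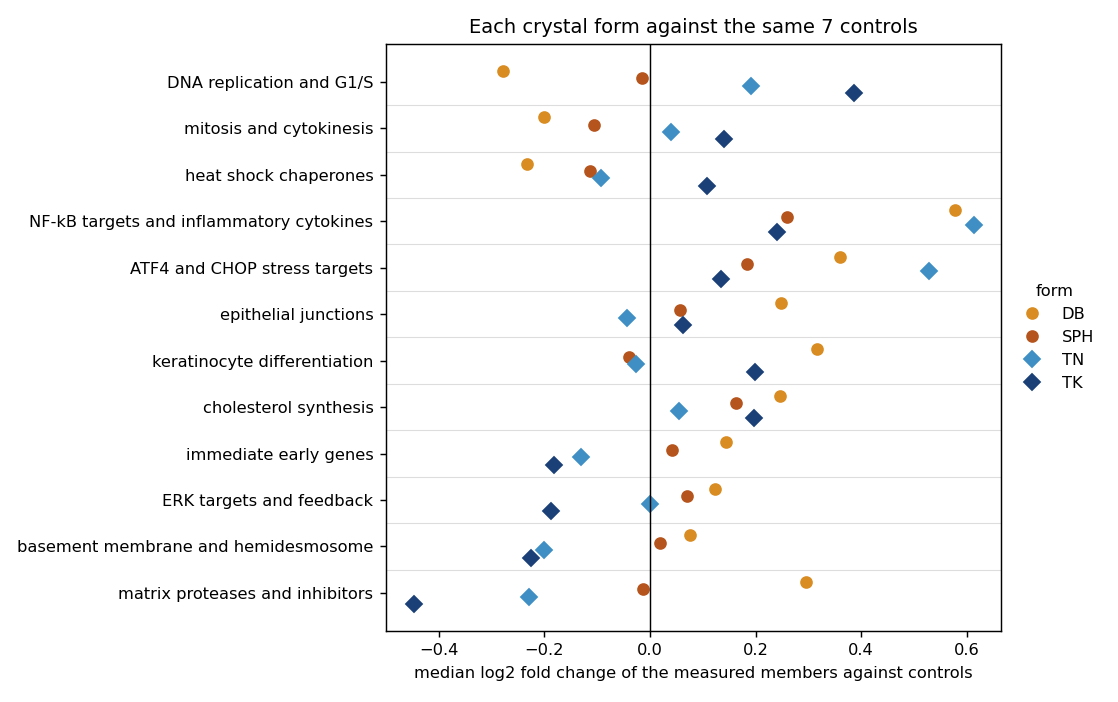
Median log2 fold change of the measured members of 12 gene lists against the same 7 controls (horizontal axis), with circles for the rounded and diamonds for the bipyramidal forms. Bipyramids lie right of both rounded forms for DNA replication and mitosis and left of both for matrix proteases, immediate early, ERK and basement membrane genes, while DB and TN are farthest right for NF-kB and ATF4 targets.

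The other lists are given by their counts. Cytosolic ribosomal protein genes gave 0 of 24 called by edgeR or DESeq2 (median 0.07, with 3 higher at an unadjusted p under 0.05), mitochondrially encoded transcripts 0 of 13 by either tool (median 0.21, with 0 at an unadjusted p under 0.05) and nuclear genes of oxidative phosphorylation 1 of 24 higher (median 0.14). Targets of p53 were higher in 3 of 24 cases and lower in 2, and endoplasmic reticulum chaperones were higher in 3 of 18. Hypoxia and glycolysis genes were split, with 2 of 23 higher and 6 lower, and all 8 bipyramid libraries lay above the rounded ones for 1 member, ADM (adrenomedullin), named after its values were seen. Lactate dehydrogenase A (LDHA) rose by 0.30 and NDRG1, a stress-induced gene of differentiation, fell by 0.60. Keratinocyte differentiation genes were higher in 4 of 25 cases and lower in 6, with the transcription factor OVOL1 down by 0.78 and not overlapping between the sides. The lower count of that list was 3 without DB D, TK B or TN A.

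Markers of the cell types that the cultures could hold were counted in the same way. Against the epithelial label, keratins were measured in all libraries: KRT5 ran from 1994 to 2969.6 (median 2392) CPM over the rounded and from 2211 to 3059.6 (median 2869.9) CPM over the bipyramid libraries, and KRT8 from 1410.0 to 2181 (median 1832) and 1783 to 2512 (median 2008) CPM. Of 11 measured luminal markers 2 were higher with bipyramids, the keratins KRT8 (0.31) and KRT18 (0.26). Of 12 basal and myoepithelial markers 5 were lower, among them CDH3, the smooth muscle actin gene ACTA2 (-0.50) and the integrin ITGA6 (-0.26). The basal count was 3 without SPH C or TN A. The basal keratin KRT5 was not called (0.04, adjusted p = 0.626). Of 10 fibroblast markers 4 were measured and 1, PDGFRA, was lower. Of 10 leukocyte markers 5 were measured and of 8 endothelial markers 2, and in the joint comparison edgeR called none of these 7. DESeq2 called 1 of the 5 leukocyte markers higher, and at an unadjusted p under 0.05 edgeR had LYZ (lysozyme) higher and CD14 lower. TN alone and TN within set 1 each called 1 of the 5 higher in the edgeR test. The summed share of leukocyte markers was highest in TN B, as given above. Whether these rises rest on TN B is not reported here. PDGFRA, LYZ and CD14 were named after their values were seen.

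The summed share of the hepatocyte markers that set TN B apart was 0.0083% to 0.0148% in the other TN libraries and 0.0056% to 0.0072% in TK. It was 0.0125% to 0.0195% in DB and 0.0126% to 0.0171% in SPH. In TN alone 7 of the 9 measured markers were called higher, and the 5 largest rises there were ALB (albumin), IGF2 (insulin-like growth factor 2), AFP (alpha-fetoprotein), AHSG (fetuin-A) and APOB (the lipoprotein apolipoprotein B). ALB was at 0.0278, 659, 0.0571 and 0.956 CPM in TN A to D, and AFP was at 0.0278, 239, 0.0285 and 0.589 CPM. IGF2, AHSG and APOB reached 103, 138 and 121 CPM in TN B. Without TN B none of the 5 was higher with bipyramids. SPP1, which encodes osteopontin, a crystal-binding secreted protein that liver tissue can also carry, was at 1.06, 18.2, 0.228 and 1.03 CPM in TN A to D and at 0.932, 0.723, 0.964 and 0.712 CPM in TK A to D. It was called in TN alone (2.78, adjusted p = 0.03) and not with both bipyramids (adjusted p = 0.0644). Without TN B the joint SPP1 difference was 0.54. The value of TN alone without TN B is not reported here, and the other TN libraries lay between 0.228 and 1.06 CPM.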

How the data were processed

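RNA was sequenced from 27 libraries of MCF10DCIS.com cells. The authors deposited expected counts per gene for each library, made with RSEM and Bowtie2 on GRCh38 after Trim Galore, per the submitters' processing notes, which give no versions. Values were rounded to whole counts here. Totals and fragment lengths are given with the results.

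Genes were filtered with edgeR 4.0.16 (filterByExpr on the 6 groups, R 4.3.3), scaled by TMM and tested with the quasi-likelihood F-test (glmQLFTest, robust). The model had a mean per group and a term for the serial-number set in all 27 libraries, and TK, TN, DB and SPH each had a weight of 0.5 on their side. A second model with a mean per group and set (11 residual degrees of freedom) gave the comparisons within sets, where a lone library was assumed to vary like the others. P-values were adjusted by Benjamini-Hochberg over all genes tested, with 0.05 as the threshold. DESeq2 1.42.0, other scalings, other filters, a block by replicate letter and the omission of each library were tried. Of the 16173 genes tested 15988 (98.9%) were matched to GENCODE 29 by identifier, and coordinates are from it. Promoter sequences are from RefSeq.

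Genes were named by a rule. It took the 8 largest called rises and falls with the same sign in all 4 pairs of forms and at least 5 CPM. These also had to have an unadjusted p under 0.05 for TN alone, so their TN values were partly set by the choice. The rule also took the 5 largest for TN alone and for TK within set 2, up to 3 called members per list, and a set of followed genes. Others are marked as chosen after their values were seen, and some that the rule names are not reported here. The comparison, the members and the 41 gene lists were chosen with earlier results of these data known.

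On simulated counts for the joint comparison over 16173 genes, 73 of 100 genes changed 1.5-fold and 81 of 100 changed 2-fold were recovered, with 3 false calls in 157. For TN alone 72 and 78 of 100 were recovered, and for TK within set 2 45 and 64 of 100. The simulated libraries were independent, with the same set effect in every group and the same change in TK and TN. Departures of the real libraries from these settings were not simulated, so the false calls do not cover them.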

Additional observations from a re-analysis of the deposited data

Results flagged for a closer look

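For each named gene and each of the 4 forms, the highest or lowest library was set against the spread of its group of 4, with Dixon's test. Of 416 combinations 38 passed it, and chance passes about 1 in 20. DB C held 11 of the 38, SPH C 8, TN B 6, TN D 4, TK B 4, TN A 2, and SPH A, SPH D and TK C 1 each.

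DB C and SPH C are the only rounded libraries of set 2. DB C was the highest dumbbell library for ABCC2 (20.9 CPM), KRT5 (2970 CPM), EBNA1BP2 (111 CPM), BIRC5 (136 CPM), CDC45 (29.4 CPM), GSR (89.7 CPM) and the liver transcripts ALB (6.45 CPM), AFP (4.97 CPM), IGF2 (1.88 CPM) and AHSG (2.0 CPM). It was the lowest for HSPA1A (31.2 CPM). SPH C was the highest sphere library for FGFR1 (106 CPM), LAMB1 (722 CPM) and GSR (91.5 CPM). It was the lowest for DKK1 (20.4 CPM), ANGPTL4 (20.3 CPM), HSPA1A (31.5 CPM), LDHA (924 CPM) and NDRG1 (93.6 CPM). SPH A was the lowest sphere library for MKI67 (206 CPM), and SPH D was the highest for LIF (690 CPM).

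Among the thin bipyramids TN B stood apart in ALB (659 CPM), AFP (239 CPM), AHSG (138 CPM), APOB (121 CPM), IGF2 (103 CPM) and SPP1 (18.2 CPM). TN D was the highest in PLAT (766 CPM), LOXL2 (38.4 CPM), SYNM (9.71 CPM) and COL6A1 (5.66 CPM). TN A was the lowest in ACTA2 (6.73 CPM) and TRPC1 (3.28 CPM). Among the thick bipyramids TK B was the highest in LIF (480 CPM), DUSP6 (311 CPM) and ICAM1 (184 CPM) and the lowest in DKK1 (37.4 CPM), and TK C was the highest in CXCL8 (201 CPM).

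The difference between the 2 forms of a side was itself called in 12 cases among the named genes. TN minus TK was 1.34 for IL24, 0.94 for LOXL2, 0.81 for PER1, 0.69 for IGFBP7, 0.55 for CAMK2N1, 0.53 for ICAM1, -0.51 for HSPH1, -0.96 for SYNM and -0.99 for ANGPTL4 on the log2 scale. DB minus SPH was 0.97 for PTGS2, 0.96 for TRPV3 and -0.88 for SMAD6.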

How the results depend on the processing

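The joint count of 3153 genes was 4019 with a replicate block by letter, 3499 with DESeq2, 3386 with no set term, 3472 with TN C placed in set 1 and 3268 against DB alone. It was 945 against SPH alone and 545 within set 2, and leaving out each library in turn gave 1963 (without TN A) to 3847 (without TN C). TN alone gave 323 with no set term, 820 with the 16 libraries only, 2287 with TN C placed in set 1, and 2521, 91 and 0 within sets 1, 2 and 3, where 990 genes of set 3 had an unadjusted p under 0.05. Its omissions ran from 169 (without TN A) to 2603 (without TN C). TK alone gave 4227 with no set term and 1450 to 2550 over omissions, and TK within set 2 gave 1031 to 1407. TN minus TK called 14 genes with no set term, 14 with the 16 libraries only, 375 with no filter, 43 at a mean of at least 5 CPM, 88 with TN C in set 1, 131 with DESeq2 and 6 to 67 over omissions. DB minus SPH called 2, 14, 428, 61 and 138 genes with no set term, the 16 libraries only, no filter, at least 5 CPM and DESeq2, and 2 to 133 over omissions. With the replicate block TN alone called 478 genes, TK alone 4874, TN minus TK 798 and DB minus SPH 0 (1244 at an unadjusted p under 0.05). The cause of these shifts was not tested. The letters were not taken to pair libraries: deviations of same-letter libraries correlated at -0.234 to 0.166 in pairs with TK and -0.279 to 0.646 in the others, and a library matched its own letter best in 7 of 24 cases.

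For the 89 named genes called in the joint comparison, 3358 refitted values kept their direction and call, 107 kept only the direction and 1 reversed, PTGS2 against DB alone (-0.13). Genes that were not called changed sign in these cases: within set 2 ALB (-3.94), AFP (-4.49), IGF2 (-2.93), APOB (-2.79), AHSG (-2.04), SPP1 (-1.22), IL1B (0.0027) and HSPA1A (0.19); and without TN B ALB (-1.98), AFP (-2.31), IGF2 (-1.52), APOB (-1.90) and AHSG (-0.38), whose highest values over omissions were 4.55, 4.02, 3.60, 3.14 and 3.79. HSPA1A gave 0.24 against DB alone and -0.11 (without SPH C) to 0.049 (without TN A) over omissions, 4 of which were above 0. CHAC1 gave -0.13 against DB alone, CDT1 -0.070 against SPH alone and -0.014 (without SPH C) to 0.086 (without DB C) over omissions, and KRT5 -0.050 against SPH alone. Genes at a few CPM or less, such as MMP9 and HMOX1, rest on low counts, and whether depth limits their calls was not tested.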

Other observations

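Some gene groups were assembled after their values were seen, so their counts are descriptions. Of 35 ribosome biogenesis factors 26 were higher with bipyramids and 0 lower (median 0.25), with 16 higher in TN alone and 18 in TK within set 2, beside 10.2% of all genes tested. NOP56, a core protein of box C/D ribonucleoproteins that guide rRNA methylation, rose by 0.58 (adjusted p = 8.76e-05 in the edgeR test) and EBNA1BP2, a factor of large subunit assembly, by 0.56. Of 24 genes of homologous recombination and fork repair 17 were higher and 0 lower (median 0.32), with 8 higher in TN alone.

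Of 18 genes of the circadian clock and its output 12 were lower and 0 higher (median -0.37), with 5 lower in TN alone and 11 in TK within set 2. DBP, a clock-driven transcription factor, fell by 0.88, the repressor PER3 by 0.56 and PER1 by 0.66. Of 20 ephrin and semaphorin genes 12 were lower and 1 higher, and 3 of 10 genes each were lower among FGF receptors and ligands and among CAMK2 isoforms and regulators. The labels do not state the harvest hour of the libraries.

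The remaining lists are given by their counts. Members called lower were 3 of 19 for actin and SRF targets, 3 of 15 for fatty acid synthesis, 4 of 21 for cholesterol synthesis and 3 of 10 for the inflammasome (median -0.20), with 0 higher in each. Cholesterol synthesis gave 2 without DB C and 7 without TN C. YAP/TAZ targets gave 3 higher and 5 lower of 20, with 2 lower without SPH C. Mineralization and oxalate handling gave 1 higher and 5 lower of 17. Interferon-stimulated genes gave 3 higher of 21. Endocytosis genes gave 4 higher (2 without SPH C) and 2 lower of 22. The edgeR test called 0 of 6 genes for metallothioneins and zinc transport, 0 of 10 replication-dependent histones and 0 of 6 nuclear-retained RNAs; DESeq2 also called 0 of each, and 0 had an unadjusted p under 0.05.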
